A study of Mus musculus with 10 samples.

Results

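The genes described here encode the proteins of the mitochondrial ribosome. They were chosen as the protein-coding genes whose symbol begins with Mrpl, for the large subunit, or Mrps, for the small subunit. The rule found 78 genes, 49 Mrpl and 29 Mrps, among 21777 protein-coding genes and 51707 genes of any kind, and it left out 5 Mrpl or Mrps pseudogenes. All 78 passed the filter on low counts. The level used to compare genes is TPM, which scales counts by transcript length and library size. The level used to compare libraries is CPM, which scales counts by library size after TMM normalisation.

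Mitochondria carry their own ribosomes, which translate the few respiratory chain subunits encoded in mitochondrial DNA. The ribosomal RNA is made inside the organelle, while every protein of the ribosome is encoded in the nucleus, translated in the cytosol and imported. Compared with its bacterial relatives this ribosome has lost RNA and gained protein, so that some of its subunits have a bacterial homologue and others are specific to mitochondria.

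The data were RNA sequencing libraries of epithelial cells sorted from orthotopic pancreatic ductal adenocarcinoma (PDAC), 5 in each of 2 groups. In every library the tumour cells were T6-LOH organoids of the KPC model of PDAC, co-transplanted with cells of the pancreatic stellate cell (PSC) line PSC4, stromal cells of the pancreas. The co-transplanted cells carried intact Egfr in one group (Egfr WT PSC) and lacked it in the other (Egfr KO PSC), so that the knockout sits in the co-transplanted stroma. The cell label PSC4 ROSA (egfr) was read as the Egfr WT PSC group named in the series title. All KO libraries carry the label PSC4 EGFR KO B4. It was read as 1 clone, which the label does not say. The series names NSG mice, which lack lymphocytes, as hosts, the strain label is C57BL/6J throughout, and no age is given. Whether the libraries of a group came from different mice is not in the labels, so p-values measure only the spread between these libraries, which may be technical. Below, the WT group and the KO group are named for the Egfr state of the PSCs, and since the knockout is not in the sorted cells their Egfr level is no check of these labels.

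The total estimated count per library, rounded to 6 digits, was 40203500 to 54758600. The epithelial markers Epcam (117 to 322 CPM) and Krt19 (3255 to 6226 CPM) were abundant in all 10, while the leukocyte gene Ptprc was at 0.667 to 4.34 CPM. The 11 fibroblast markers summed to 374 to 941 CPM in the WT group and 353 to 1248 CPM in the KO group. The 12 macrophage markers summed to 275 to 468 and 224 to 337 CPM, most of it Cd14. Over the 10 libraries Mrc1 was at 18.1 to 66.7 CPM, Cd68 at 8.08 to 22.1 CPM and Csf1r at 3.93 to 10.2 CPM. The complement gene C1qc was at 0 in the lowest library. The 5 erythroid markers were at 4.45 to 31.5 CPM in the WT group and at 0.604 to 2.97 CPM in the KO group, and these sums did not overlap. In bulk libraries fewer cells of a type and less RNA per cell cannot be told apart. What other cells contributed to the levels below was not tested.

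The promoters of 69 of the 78 genes were in the RefSeq table used here (GRCm38.p6), which gave 75 promoters of 300 bases, 250 before and 50 after the start, since some genes have several starts. They were searched on both strands for short motifs of factors known to act on nuclear genes for mitochondria. The NRF1 element TGCGCA was in 22 of 75 promoters (29.3%), against 7.76% of all 32851 promoters in the table and 9.74% of those of protein-coding genes. The ETS element CCGGAAG, bound by GABP, was in 26 (34.7%), against 8.86% of all promoters and 11.6% of protein-coding ones. The YY1 element AAGATGGC was in 12 (16%), against 2.75% and 3.05%. At least 1 of these 3 stood in 45 promoters (60%), in 27 of 48 for the large and 18 of 27 for the small subunit. The share was 17.3% of all promoters and 21.6% of protein-coding ones. The SP1 letters GGGCGG were in 39 (52%, against 35.7% and 46.2%). The E-box CACGTG, a MYC site, was in 7 promoters (9.33%, against 7.15% and 7.84%). The box CCAAT was in 30 (40%, against 37.4% and 38.2%), and the letters TATAAA in 5 (6.67%, against 13.6% and 12.6%). The 75 promoters had a median GC content of 58.7% and 21 CG dinucleotides, against 56.3% and 13 over protein-coding genes. A match describes letters and is not a measured site.

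The promoters of 5 genes to which the results return are printed 5′ to 3′ in the direction of transcription. Mrpl52 (chr14:54426659-54426958, plus strand) was the most abundant gene by TPM, and Mrps30 (chr13:118387203-118387502, minus strand) the least. Mrpl10 (chr11:97041332-97041631, plus strand) and Mrps18b (chr17:35916391-35916690, minus strand) were among the 5 genes of lowest p between the groups. Mrps12 (chr7:28741772-28742071, minus strand) shares its start region with the gene of another mitochondrial translation protein. Capitals mark the short NRF1 element and the ETS, YY1 and CCAAT letters named above, on either strand. No marked motifs overlap one another. Mrpl52 had the ETS element at 2 places, Mrps18b the short NRF1 element at 2 and the ETS element at 1, and Mrpl10 the short NRF1 element at 1. Mrps12 had YY1 and ETS elements with 4 CCAAT boxes, and Mrps30 had 3 CCAAT boxes and none of the other marked letters.
Mrpl52: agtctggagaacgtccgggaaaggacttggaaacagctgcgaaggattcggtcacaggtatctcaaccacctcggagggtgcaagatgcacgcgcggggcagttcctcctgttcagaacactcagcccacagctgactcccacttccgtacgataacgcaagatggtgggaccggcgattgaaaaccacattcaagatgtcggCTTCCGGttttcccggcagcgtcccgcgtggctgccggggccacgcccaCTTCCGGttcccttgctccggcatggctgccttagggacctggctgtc
Mrps30: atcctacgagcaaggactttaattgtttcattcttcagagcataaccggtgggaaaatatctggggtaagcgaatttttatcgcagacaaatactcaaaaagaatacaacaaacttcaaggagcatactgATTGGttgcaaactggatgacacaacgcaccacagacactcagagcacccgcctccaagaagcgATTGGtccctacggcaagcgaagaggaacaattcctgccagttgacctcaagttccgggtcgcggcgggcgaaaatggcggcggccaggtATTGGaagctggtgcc
Mrpl10: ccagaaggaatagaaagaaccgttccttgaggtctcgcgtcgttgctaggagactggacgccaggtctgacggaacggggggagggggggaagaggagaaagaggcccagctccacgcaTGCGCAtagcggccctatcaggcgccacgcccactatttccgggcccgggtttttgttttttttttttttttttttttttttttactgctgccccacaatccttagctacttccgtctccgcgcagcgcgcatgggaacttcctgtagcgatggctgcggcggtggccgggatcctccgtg
Mrps18b: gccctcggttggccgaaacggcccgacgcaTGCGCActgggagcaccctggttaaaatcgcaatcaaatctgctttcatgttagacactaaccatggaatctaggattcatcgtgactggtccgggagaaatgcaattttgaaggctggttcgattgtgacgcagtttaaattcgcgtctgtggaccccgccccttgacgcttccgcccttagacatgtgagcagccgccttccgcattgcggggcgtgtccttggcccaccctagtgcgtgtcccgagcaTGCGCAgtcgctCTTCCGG
Mrps12: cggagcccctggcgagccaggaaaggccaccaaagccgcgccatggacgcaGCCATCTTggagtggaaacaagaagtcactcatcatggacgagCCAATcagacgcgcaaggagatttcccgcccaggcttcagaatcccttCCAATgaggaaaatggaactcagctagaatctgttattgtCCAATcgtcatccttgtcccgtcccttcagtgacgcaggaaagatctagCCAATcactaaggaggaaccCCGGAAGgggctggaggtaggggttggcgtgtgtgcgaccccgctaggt

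The 78 genes lay on 17 chromosomes, 11 of them on chromosome 11. In the GENCODE M21 annotation 18 of them (23.1%) had the start of another protein-coding gene within 1000 bases upstream on the opposite strand, against 6.79% of all 21951 protein-coding genes on chromosomes. The distance between the starts was 26 to 935 bases, with a median of 82. Mrps12, a protein of the decoding centre, stood head to head with Sars2, the mitochondrial seryl-tRNA synthetase. Mrps12 was at 50.2 ± 5.36 CPM in the WT group and 51.7 ± 10.2 CPM in the KO group (SD, n = 5 each), and Sars2 at 13.7 ± 0.581 and 14.4 ± 1.44 CPM. The partners themselves spanned 0.182 CPM, for Lrrc46 beside Mrpl10, to 592 CPM, for Fau beside Mrpl49. Lrrc46 was below the filter on low counts. Of the other 17 partners 10 had a positive and 7 a negative log2 fold change between the groups. An unadjusted edgeR p under 0.05 was reached by 0 of the 17, against 8.15% of all genes tested.

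The mitochondrial ribosomal protein genes were expressed in every library, with 103 or more counts for every gene in every library. Their median level over the 78 genes was 75.9 TPM, and 73 of them stood above the median of the 17495 genes tested by mean CPM. The most abundant were Mrpl52 (249 to 398 TPM over the 10 libraries), Mrps14 (239 to 328), Mrpl28 (238 to 362), Mrps21 (199 to 365), Mrpl30 (264 to 303) and Mrpl33 (241 to 311). These 6 ranges overlapped one another and held 22.0% of the summed TPM. Mrpl52 is specific to mitochondria, and the other 5 belong to families that bacteria share.

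Of the 6 genes of lowest level 4 carry a small subunit name. Mrps30 was at 0.964 to 3.12 TPM, Mrps24 at 7.50 to 10.7, Mrps26 at 7.17 to 11.5, Mrpl3 at 10.2 to 18.2, Mrps34 at 10.3 to 24.9 and Mrpl47 at 17.7 to 26.0. The range of Mrps30 touched no other of the 78 genes, and its mean was 191-fold below that of Mrpl52. Mrps30 carries a small subunit name, while in structures its protein sits in the large subunit. Mrps24 is the mitochondrial relative of a protein at the entry of the mRNA channel. Longer transcripts had lower TPM (Spearman rho -0.54 across the 78 genes, with the length of the leading transcript, and genes are not independent replicates).

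**Figure D1:**
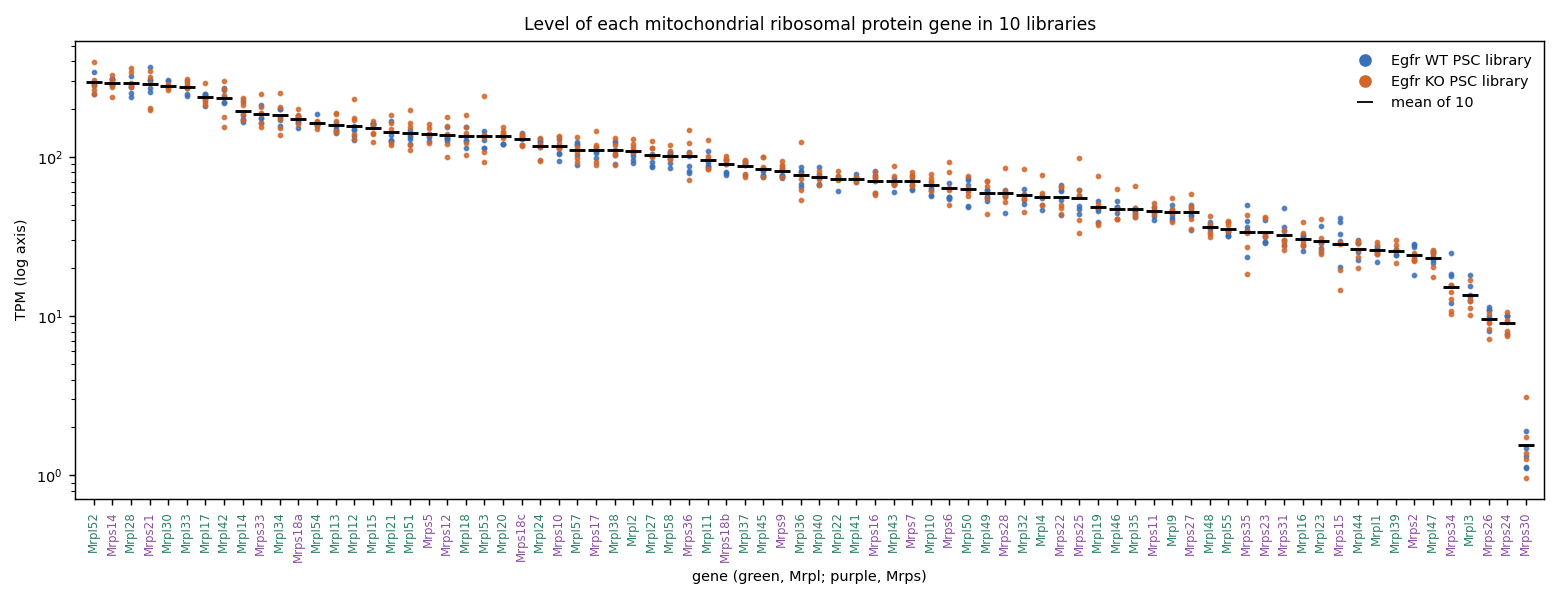
TPM of each of the 78 genes on a log axis, 1 point per library, ordered by the mean of the 10 libraries (black dash). The levels run from 295 TPM for Mrpl52 to 1.55 TPM for Mrps30, and 3 genes have a mean under 10 TPM. The groups overlap in all 78 genes but Mrpl2 and Mrpl55, with no share over all genes given in TPM.

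The order of the genes was nearly the same in all libraries. The Spearman correlation of the 78 TPM values between any 2 libraries was 0.938 to 0.992 over 45 pairs, as a description, since the libraries share cells of 1 organoid source and the genes share transcript lengths. The coefficient of variation of a gene's CPM over the 10 libraries had a median of 11.6% for these genes and of 24.2% for all genes tested, many of them far less abundant. Nuclear respiratory chain genes had the same median, 11.6%, so the small spread is not particular to the mitochondrial ribosome. It was smallest for Mrpl41, at 31.3, 32.8, 31.7, 33.8 and 33.5 CPM in the WT group and 33.8, 31.4, 31.8, 32.0 and 32.8 CPM in the KO group. Mrpl41, a large subunit protein, thus held one level in all 10 libraries, with a coefficient of variation of 3.05%. Mrpl30 was next, at 4.71%. Among genes of at least 5 CPM it was largest for Mrpl53 of the stalk region (30.0%), Mrps34 (28.7%), Mrps15 (27.9%) and Mrps35 (24.0%). Mrpl53 was at 37.0 to 57.0 CPM in 9 libraries and at 90.9 CPM in KO replicate 3.

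For some of these genes most counts were not in transcripts annotated as protein coding. The 78 genes have 343 transcripts in the GENCODE M21 annotation, 170 of them protein coding. The share of a gene's counts outside coding transcripts had a median of 3.23%, was above 20% in 20 genes and above 50% in 9 genes. Those 9 were Mrpl3, Mrpl32, Mrps26, Mrps24, Mrps16, Mrpl51, Mrpl15, Mrps14 and Mrpl57. In Mrps14 a 674-base transcript annotated as a target of nonsense-mediated decay held 68.0 ± 2.06% of the counts in the WT group and 68.6 ± 2.05% in the KO group, and a coding transcript of 2999 bases held 30.9 ± 2.03% and 30.4 ± 1.96%. In Mrps26 a retained-intron transcript of 1057 bases held 79.2 ± 3.94% and 77.1 ± 3.28%, and in Mrps16 a non-coding processed transcript of 801 bases held 75.5 ± 1.70% and 75.4 ± 1.79%. The coding transcripts of these genes are long, 4278 bases in Mrps26 and 2572 in Mrps16. What the difference in length does to how counts were divided was not tested. The coding classes are those of an annotation of an older genome build than the one behind the files, and 10765 transcripts it does not hold were left out. Whether coding transcripts of these genes are among them was not tested, so the non-coding shares, and the levels over coding transcripts alone, hold for this annotation only.

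The choice of transcripts changed the order of the levels. Counted over coding transcripts alone, Mrps14 stood at rank 60 of the 78 in place of rank 2 (25.6 TPM in place of 293), Mrpl51 at 69 in place of 18 (10.2 in place of 142) and Mrpl15 at 64 in place of 16 (21.3 in place of 153). Mrps21 then led (286 TPM), followed by Mrpl28, Mrpl30, Mrpl33 and Mrpl52. The lowest was Mrps26 (0.476 TPM), below Mrps24, Mrpl3 and Mrps30. Of the 152 transcripts with a mean share over 5%, 1 had no overlap between the groups. It was the coding transcript of Mrpl54, at 98.7 ± 0.424% and 99.4 ± 0.123%. The same count over the transcripts of all genes was not made, so this one is a description only.

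**Figure D2:**
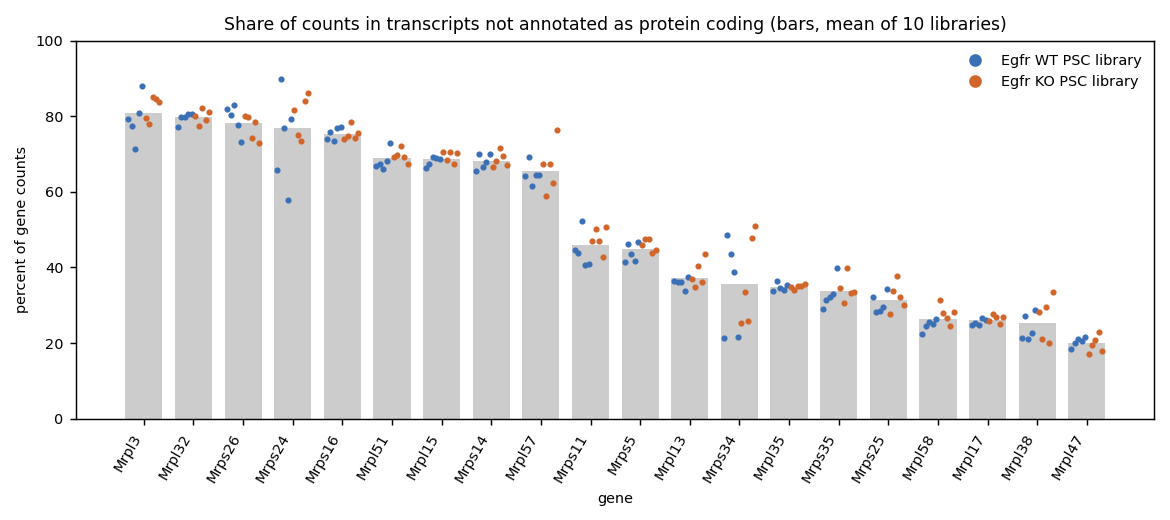
Percent of each gene's counts in transcripts not annotated as protein coding, for the 20 genes above 20%, with 1 point per library and the mean of 10 as a bar. In Mrpl3, Mrpl32 and Mrps26 the bar stands near 80%, and the points of the groups overlap in every gene shown.

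Mrpl23, which lies at the peptide exit tunnel, has a pseudogene with more counts than itself. Mrpl23 was at 10.8 ± 1.54 and 11.2 ± 2.11 CPM in the WT and KO groups, and Mrpl23-ps1 at 33.7 ± 5.37 and 35.7 ± 4.36 CPM. How reads were divided between the gene and its pseudogene is decided by the quantification, so the separate value of Mrpl23 is uncertain. Their sequences were not compared. The labels do not state that counting used the strand, and 28 of the 78 genes share exon sequence with a gene on the opposite strand and 8 with one on the same strand. Among them are Mrps34 (Mapk8ip3 and Nme3), Mrpl10 (Gm11574) and Mrps18b (Gm16279).

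Large subunit genes had somewhat higher levels than small subunit genes. The mean TPM per gene was 107 ± 4.17 for the 49 large subunit genes and 85.4 ± 3.50 for the 29 small subunit genes in the WT group, and 111 ± 13.7 and 87.2 ± 10.5 in the KO group. The ratio of large to small was 1.21, 1.28, 1.25, 1.25 and 1.25 in the WT libraries and 1.24, 1.27, 1.29, 1.27 and 1.32 in the KO libraries. It lay above 1 in all 10, and the groups overlapped. The size of the ratio depends on which genes are counted in a subunit. By structure, with Mrps18a and Mrps30 moved to the large subunit, Mrps36 left out and 5 subunits of other symbol added, it was 1.14 and 1.18 in the mean of the groups, and over coding transcripts alone 1.39 and 1.41. Genes with a bacterial homologue had a median of 93.2 TPM (48 genes) and genes specific to mitochondria one of 62.7 TPM (29 genes).

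Summed over all 78 genes, the level per library was 7579, 7449, 7459, 7906 and 8124 TPM in the WT group. In the KO group it was 7228, 8312, 9412, 8031 and 6954 TPM. The KO libraries thus held both the highest sum, in replicate 3, and the lowest, in replicate 5, and the means were 7703 ± 299 and 7987 ± 972 TPM. The sums amounted to 0.397% to 0.455% of the counts in the WT group and 0.378% to 0.541% in the KO group. The file names carry a number, 8, 9 or 10, whose meaning the labels do not give. The mean sum of WT and KO libraries was 7449 and 8183 TPM at number 8 (n = 1 and 2), 7791 and 8031 at number 9 (n = 2 and 1), and 7743 and 7770 at number 10 (n = 2 each). The mean ratio of large to small was 1.28 and 1.31, 1.25 and 1.27, and 1.23 and 1.25. Both means were thus higher in the KO libraries at each number, with 1 or 2 libraries on each side and no test. Single libraries did not all follow. At number 10 the sum of KO replicate 1 (7228 TPM) lay below both WT libraries (7579 and 7906 TPM). At number 8 that of KO replicate 5 (6954 TPM) lay below the WT library (7449 TPM). The subunits were high and low in the same libraries: the large subunit sum was 6457 TPM and the small one 2955 TPM in KO replicate 3, and 4802 and 2151 TPM in KO replicate 5.

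**Figure D3:**
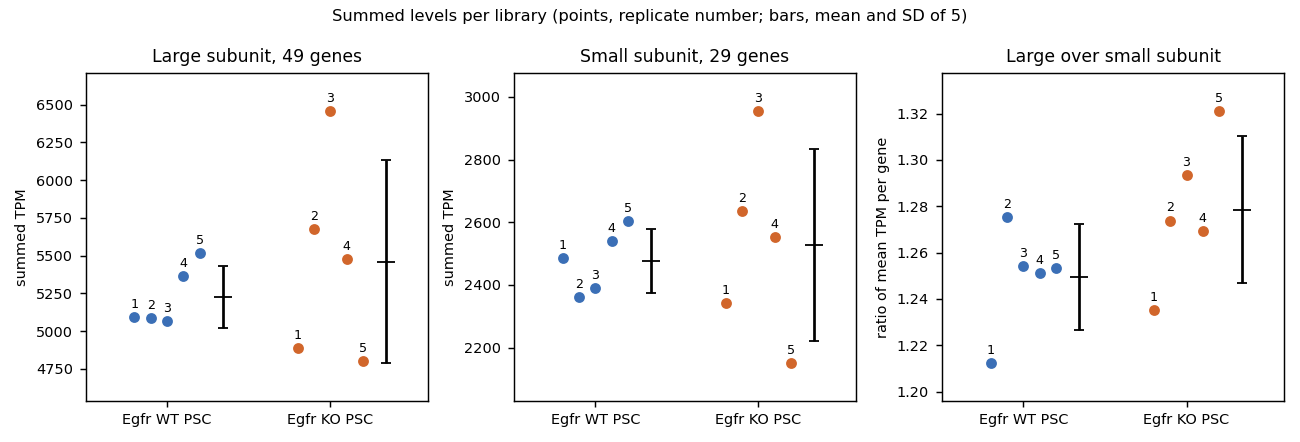
Summed TPM of large and small subunit genes and the ratio of their mean TPM per gene, 1 point per library with its replicate number, and the mean and SD of 5 libraries. KO replicate 3 is highest and replicate 5 lowest in both sums, while the ratio lies between 1.21 and 1.32 in all libraries.

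KO replicate 3 stood apart over many of these genes. In CPM it was the highest of the 10 libraries in 35 of the 78 genes and the lowest in 1, and it was above the gene's mean in 64. Its median deviation from the gene means was 0.20 on the log2 scale, against -0.11 in WT replicate 3, which was lowest in 22 genes. The same library had the highest summed TPM of cytosolic ribosomal protein genes (109947, against 71057 to 95831 in the other 9) and of nuclear respiratory chain genes (29798, against 24544 to 27602). The 13 protein genes of mitochondrial DNA, the templates of this ribosome, summed to 37324 TPM in it, the lowest of the KO libraries. Its epithelial marker sum of 14648 CPM was the lowest of the 10, while KO replicate 5, with the lowest sum of mitochondrial ribosomal protein genes, had the highest, 25897 CPM. The markers did not all go with this sum. Krt8 was at 2504 CPM in replicate 3 and 6821 CPM in replicate 5, and most others were also lower in replicate 3. Epcam (261 and 187 CPM) and Cldn4 (1950 and 1853 CPM) were higher in it. The fibroblast and macrophage marker sums of KO replicate 3, 509 and 337 CPM, lay within the range of the others. Its endothelial sum of 49.3 CPM was the highest. Their part in these levels was not tested.

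The design asks how the absence of Egfr from the co-transplanted PSCs relates to expression in the tumour epithelium. Of the 78 genes, 0 passed the edgeR quasi-likelihood test at an adjusted p of 0.05 (Benjamini-Hochberg over 17495 genes), beside 0% of all genes, higher or lower. DESeq2 called 0 of the 78, beside 0.749% of all genes (0.24% higher and 0.509% lower). With limma voom 0 of the 78 passed, beside 0.0171% of all genes (0.00572% higher and 0.0114% lower). At an unadjusted edgeR p under 0.05 there were 5 of 78 (6.41%), 4 higher and 1 lower in the KO group, against 8.15% of all genes (3.55% higher and 4.6% lower). With DESeq2 there were 8 of 78 (10.3%), against 9.43% of all genes (4.33% higher and 5.09% lower), and with limma voom 12 of 78 (15.4%), against 13% (5.28% higher and 7.68% lower). The 2 groups did not overlap in 1 of the 78 genes (1.28%), against 1.52% of all genes (0.777% higher and 0.743% lower). With both directions pooled, the shares at this p and without overlap were thus near those of all genes. By direction, more of the 78 were higher and more of all genes lower. These counts are small. In edgeR fits without 1 library the 4 higher became 1 to 7 and the 1 lower became 0 to 2. The share of all genes in those fits is not given. With edgeR 5.13% of the 78 were higher, against 3.55% of all genes. All but 1 of the 8 with DESeq2 and 9 of the 12 with limma voom were higher. No set test was run.

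The log2 fold changes of the KO over the WT group were small throughout. They ran from -0.48 to 0.29, and the 95% confidence interval lay within 1 log2 unit of 0 for all 78 genes and within 0.5 for 66. The median was 0.087, with 54 higher and 24 lower (69.2% higher), beside a median of 0.00041 and 50.1% higher for all genes tested. By subunit it was 0.093 for the large (36 of 49 higher) and 0.084 for the small (18 of 29 higher). These medians depended on 1 library. Without KO replicate 3 the median of the 78 was 0.015 with 43 higher, and those of the large and small subunit were 0.020 and -0.016. With the fibroblast score as a covariate the median was 0.155 and with the macrophage score 0.134, and both marker lists had negative medians in this comparison (-0.50 and -1.17).

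**Figure D4:**
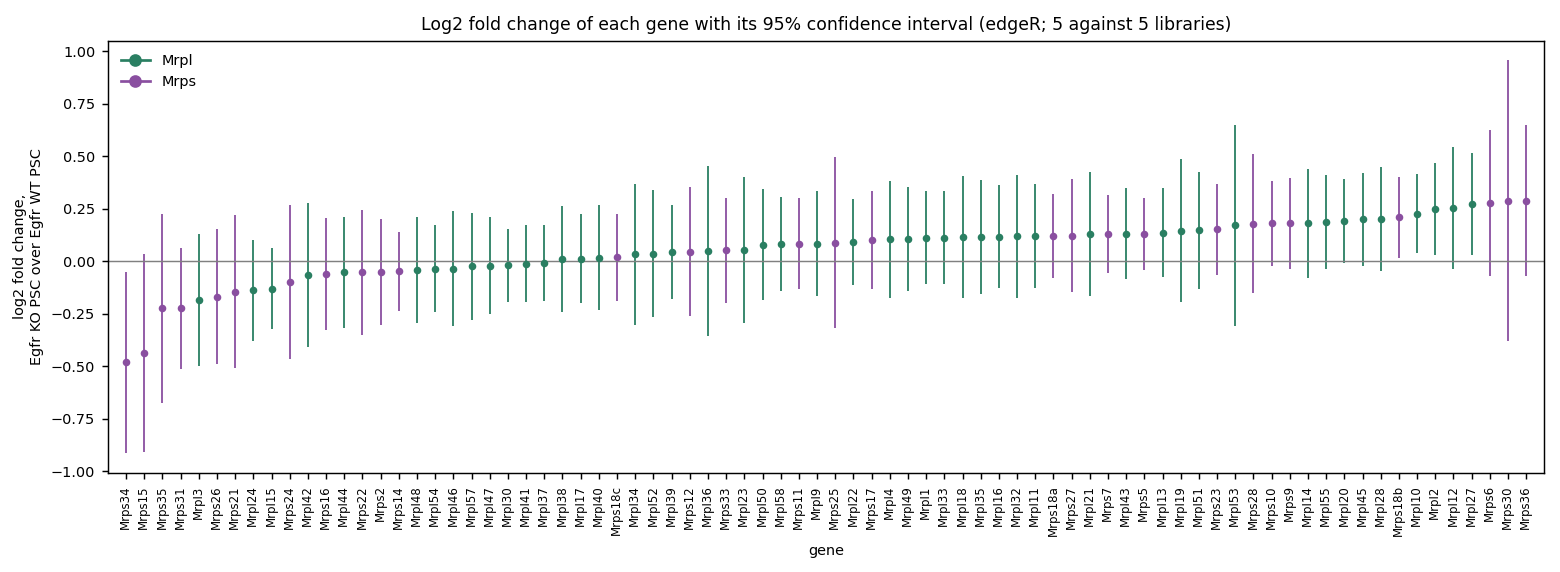
Log2 fold change of each of the 78 genes between the groups with its 95% confidence interval from edgeR, ordered by size and coloured by subunit. The points run from -0.48 for Mrps34 to 0.29 for Mrps36, and 73 of the 78 intervals include 0.

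The gene of lowest p was Mrpl10, whose protein forms the base of the stalk that recruits translation factors. It was at 67.0, 68.6, 66.3, 71.1 and 64.2 CPM in the WT group and at 69.8, 79.8, 83.6, 76.9 and 84.6 CPM in the KO group. Replicate 1 of the KO group lay among the WT values and the other 4 above them all (log2 fold change of 0.23 with SE 0.086 and an edgeR adjusted p of 0.515). Mrpl2, a protein of the peptidyl transferase region, was at 57.7, 58.6, 57.9, 54.7 and 65.2 CPM and at 69.1, 70.2, 62.6, 64.3 and 83.4 CPM. Here 3 KO libraries lay above all WT libraries and 2 among them (log2 fold change of 0.25 with SE 0.10 and an edgeR adjusted p of 0.557). Mrpl27 is a relative of a bacterial protein near the same active site. It was at 35.9, 39.3, 40.6, 38.2 and 45.6 CPM in the WT group and at 45.0, 41.5, 48.0, 48.3 and 58.2 CPM in the KO group, so that the groups overlapped (log2 fold change 0.27, edgeR adjusted p = 0.565).

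Mrps18b belongs to a family of 3 genes related to a single bacterial small subunit protein. It was at 48.6, 55.6, 58.2, 56.9 and 52.7 CPM in the WT group and at 64.3, 64.6, 57.5, 61.5 and 66.7 CPM in the KO group. Only replicate 3 of the latter lay within the WT range (log2 fold change of 0.21 with SE 0.089 and an edgeR adjusted p of 0.586). Its relatives Mrps18a, whose protein sits in the large subunit, and Mrps18c were at 87.9 ± 5.37 and 95.5 ± 8.12 CPM and at 43.1 ± 2.92 and 43.6 ± 3.52 CPM. By TPM the order in the family was Mrps18a (151 to 199), Mrps18c (118 to 142) and Mrps18b (77.4 to 102), with no overlap between these ranges.

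The gene with the most negative log2 fold change was Mrps34, a mitochondria-specific protein of the small subunit. It was at 9.39, 10.3, 14.4, 10.1 and 6.42 CPM in the WT group and at 7.60, 8.44, 6.59, 6.40 and 7.25 CPM in the KO group. The WT libraries spanned nearly the whole range, with replicate 3 highest and replicate 5 below 4 of the 5 KO values (log2 fold change of -0.48 with SE 0.20 and an edgeR adjusted p of 0.565). The value was -0.20 with the macrophage score and -0.78 with the fibroblast score as a covariate. Mrps15, which binds ribosomal RNA of the small subunit, followed at 16.2 ± 3.80 and 11.9 ± 2.97 CPM (log2 fold change -0.44, edgeR adjusted p = 0.646). For Mrps15 too WT replicate 5 was low, at 10.3 CPM against 15.8 CPM or more in the other 4, and Mrps35 showed the same library at 11.2 CPM against 17.4 CPM or more.

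**Figure D5:**
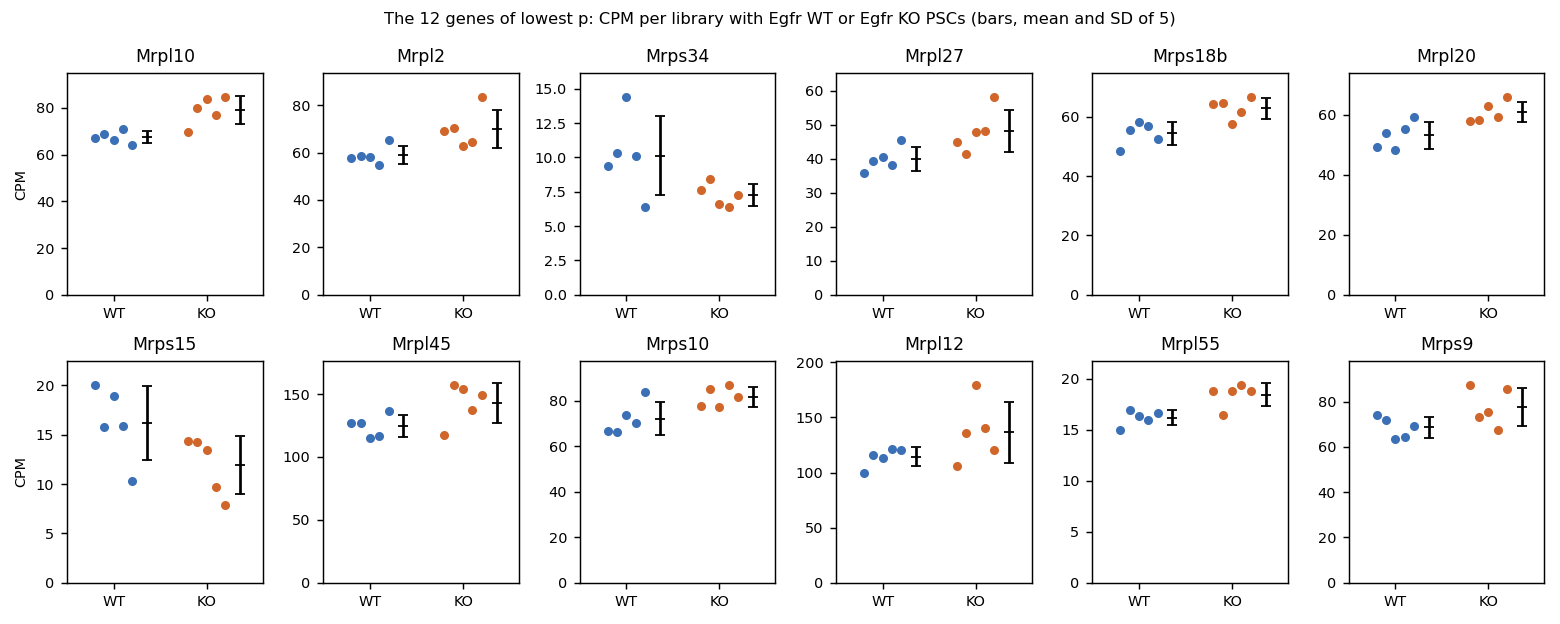
CPM of the 12 genes of lowest unadjusted edgeR p, 1 point per library, with the mean and SD of 5 libraries and axes from 0. The groups overlap in all 12, and 10 of them have the higher mean in the KO group, Mrps34 and Mrps15 the lower.

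The rest of the 12 genes of lowest p had log2 fold changes of 0.18 to 0.26 and edgeR adjusted p of 0.627 to 0.674. They were Mrpl20 (53.2 ± 4.49 and 60.8 ± 3.43 CPM), Mrpl45, Mrps10 (72.1 ± 7.19 and 81.7 ± 4.33 CPM), Mrpl12, Mrpl55 (16.2 ± 0.754 and 18.4 ± 1.13 CPM) and Mrps9 (68.6 ± 4.56 and 77.8 ± 8.43 CPM). Mrpl45 holds the ribosome at the inner membrane and was at 124 ± 8.94 and 143 ± 16.2 CPM. Mrpl12, the flexible stalk protein that contacts translation factors, was at 99.8, 116, 114, 122 and 120 CPM in the WT group and at 106, 135, 179, 140 and 121 CPM in the KO group. KO replicate 3 was the highest here as well. The gene without overlap was Mrps5, of the mRNA entry side, at 67.7 to 75.7 CPM in the WT group and 76.0 to 83.4 CPM in the KO group (log2 fold change 0.13, edgeR adjusted p = 0.698). It is named because it met that count, after its values were seen. In TPM, which also takes transcript lengths into account, the groups overlapped for Mrps5 and did not for Mrpl2 and Mrpl55. The share of all genes without overlap in TPM is not given here.

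By position in the ribosome, the 5 genes of the L7/L12 stalk and its base had a median log2 fold change of 0.17, with 4 higher. The 8 genes around the peptide exit tunnel had one of 0.028 (5 higher) and the 6 of the central protuberance one of 0.015 (4 higher). Genes with a bacterial homologue had a median of 0.11 (37 of 48 higher) and genes specific to mitochondria 0.018 (16 of 29 higher). Each of these medians was lower without KO replicate 3. Without it they were 0.050 for the stalk (3 of 5 higher), -0.041 for the exit tunnel, -0.0020 for the central protuberance, 0.047 for genes with a bacterial homologue (31 of 48 higher) and -0.032 for genes specific to mitochondria. Other libraries mattered too. The central protuberance median was -0.023 without WT replicate 1. Without WT replicate 3 the median was -0.0048 for the exit tunnel and -0.016 for genes specific to mitochondria. The stalk median in all 10 libraries is the value of Mrpl53, the gene that was at 90.9 CPM in KO replicate 3. None of the genes in these groups passed with edgeR, DESeq2 or limma voom. The 5 of them at an unadjusted edgeR p under 0.05 are those counted above, beside 8.15% of all genes. Mrpl58, which frees stalled ribosomes and also sits in the central protuberance, was at 34.9 ± 3.07 and 37.0 ± 2.96 CPM. Mrps30 was at 3.07 ± 0.844 and 3.75 ± 1.76 CPM, with its highest value, 6.73 CPM, in KO replicate 3. Mrps36 is now known as a part of the oxoglutarate dehydrogenase complex, an enzyme of the citric acid cycle, in spite of its name. It was at 35.1 ± 5.58 and 42.9 ± 9.57 CPM (log2 fold change 0.29, edgeR adjusted p = 0.682), with replicate 3 of the KO group highest at 55.6 CPM.

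The other genes of mitochondrial translation gave 0 calls with edgeR and DESeq2 in this comparison, beside 0% and 0.749% of all genes. An unadjusted edgeR p under 0.05 was reached by 8.15% of all genes. It was reached by 1 subunit with another symbol (20%), 1 assembly factor (3.85%) and 2 regulators (22.2%) of these short lists. None of the translation factors, synthetases, transcription genes and mitochondrial DNA genes reached it. Of the 5 subunits with other symbols 3 were higher and 2 lower, and Gadd45gip1, a large subunit protein, had the lowest p (20.7 ± 7.17 and 13.4 ± 3.36 CPM, log2 fold change -0.63, edgeR adjusted p = 0.569). Of the 26 assembly factors and rRNA modification enzymes 8 were higher and 18 lower (median -0.052), with the lowest p for the pseudouridine synthase gene Trub2 (27.3 ± 1.53 and 32.8 ± 3.41 CPM, edgeR adjusted p = 0.536). Of the 12 translation factors 7 were higher, and Mrrf, the ribosome recycling factor, was at 23.3 ± 1.46 and 19.7 ± 3.25 CPM. Of the 17 mitochondrial aminoacyl-tRNA synthetases 6 were higher and 11 lower (median -0.095), with Ears2 at 3.01 ± 0.521 and 2.28 ± 0.583 CPM. These lists had medians on both sides of that of all genes.

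Genes that supply or regulate the ribosome's work were also measured. Of the 11 genes of mitochondrial transcription and mRNA handling 3 were higher and 8 lower, with the RNA helicase gene Supv3l1 at 5.44 ± 0.733 and 4.09 ± 0.957 CPM. Among the 9 regulators of nuclear genes for mitochondria, Myc was at 378 ± 42.3 and 501 ± 96.5 CPM (edgeR adjusted p = 0.495) and the coactivator gene Ppargc1b at 4.81 ± 1.43 and 2.84 ± 1.10 CPM (edgeR adjusted p = 0.547). Of the 13 protein genes of mitochondrial DNA 5 were higher and 8 lower (median -0.061), and mt-Nd5 had the lowest p (374 ± 98.7 and 311 ± 51.6 CPM). For comparison, the 83 cytosolic ribosomal protein genes tested had a median of 0.12 (76 higher) and the 88 nuclear respiratory chain genes one of 0.039 (54 higher). Neither of these last 2 sets had a call with edgeR or DESeq2, beside 0% and 0.749% of all genes. At an unadjusted edgeR p under 0.05 were 4 (4.82%) and 3 (3.41%) of their genes, against 8.15% of all genes.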

How the data were processed

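Salmon 1.9.0 made the deposited files, with GRCm39 as genome build, per the submitters' processing notes. For the annotation, the release is not stated in any label. The authors deposited, for each of 147828 transcripts, an estimated count that is not normalised, a TPM value, scaled by length to one fixed total per library, and lengths in bases. Transcripts were assigned to genes and classed as coding by identifier with GENCODE M21 (GRCm38), names only; 92.7% matched, holding 98.1% to 98.7% of counts, and the other 10765, of unknown gene, were left out. Counts were summed per gene and rounded.

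Groups came from the labels. Counts were tested with edgeR 4.0.16 (quasi-likelihood, TMM, default filter with minimum count 10) in R 4.3.3 on 17495 genes, Benjamini-Hochberg threshold 0.05, no covariate; the fit was tested on simulated data. Alternatives were DESeq2 1.42.0, limma 3.58.1 voom, other normalisation, filter, lengths, transcripts and covariates, and leaving out each library. Sums over genes carry no p. Named were the 12 genes of lowest p, the 6 highest and 6 lowest by TPM, the 4 most and 2 least variable above 5 CPM, 9 chosen for their roles, and up to 3 of lowest p in each other list; 145 of 146 list names matched. The genes and lists were chosen with earlier results of these data known. Molecular identifiers are not mentioned in the labels, so PCR copies count as reads.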

Additional observations from a re-analysis of the deposited data

Results flagged for a closer look

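In 4 of 70 groups of 5 libraries examined 1 library lay apart from the other 4 by more than Dixon's 95% critical value, and chance gives about 1 in 20. In the WT group, Mrps26 was at 5.68 CPM in replicate 5 against 6.93 CPM or more in the others, and Mrps18c at 38.0 CPM in replicate 3 against 43.4 CPM or more. In the KO group, Mrpl55 was at 16.5 CPM in replicate 2 against 18.8 CPM or more. Mrpl52 was at 68.7 CPM in KO replicate 3 against 50.4 CPM or less in the other 4.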

How the results depend on the processing

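No paired analysis was possible because the labels number no replicates, and the numbers in the file names occur more than once within a group. The count of mitochondrial ribosomal protein genes called stayed at 0 in all fits run. At an unadjusted p under 0.05 there were 3 genes without the filter on low counts (2 higher), 8 with DESeq2 (7 higher), 12 with limma voom (9 higher, 3 lower), and 2, both higher and 0 lower, with the number in the file names or the macrophage score as a term. Over coding transcripts 0 were lower. Leaving out 1 library gave 2 to 9 (1 to 7 higher, 0 to 2 lower), 2 without WT replicate 1 and 9 without WT replicate 5. The share of all genes at this p is given only for the main edgeR fit, DESeq2 and limma voom. The counts from the other fits thus have no background and are a description only. Genes without overlap numbered 2 with DESeq2 size factors and 2 in TPM. The share of all genes without overlap is not given for these 2 measures, so these counts have no background. The summed TPM was 6260 (WT) and 6507 (KO) over coding transcripts, and 8259 (WT) and 8489 (KO) when rescaled without mitochondrial DNA. The subunit ratio was 1.39 and 1.41 over coding transcripts, 1.14 and 1.18 by structure, and 1.39 and 1.43 as a ratio of medians. The median of the small subunit ran from -0.016 to 0.11 over fits without 1 library, lowest without KO replicate 3. Signs changed for 12 named genes. With 1 library left out the ranges were -0.041 to 0.0059 (Mrpl30), -0.026 to 0.0030 (Mrpl41), -0.052 to 0.028 (Mrpl47), -0.076 to 0.12 (Mrpl52), -0.087 to 0.29 (Mrpl53), -0.045 to 0.14 (Mrps12), -0.024 to 0.052 (Mrps18c) and -0.021 to 0.44 (Mrps30). The file-name number gave -0.021 (Mrpl52) and -0.019 (Mrps18c). The fibroblast score gave 0.056 (Mrps14), 0.022 (Mrps21), 0.038 (Mrpl30), 0.0015 (Mrpl3) and 0.034 (Mrpl41). The macrophage score gave 0.030 (Mrpl47) and -0.0079 (Mrps18c), and coding transcripts 0.020 (Mrps26), 0.0083 (Mrpl47) and 0.0078 (Mrpl41). The cause was not tested. Mrps30, with the lowest count in a single library, had the widest confidence interval. By position, a comparison added after seeing the data, fits without 1 library gave medians of 0.050 to 0.26 (stalk), -0.041 to 0.060 (exit tunnel), -0.023 to 0.056 (central protuberance), 0.047 to 0.14 (bacterial homologue) and -0.032 to 0.061 (mitochondria-specific), and limma voom gave -0.0049 for the last.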
